A study of Mus musculus with 2 samples.

Results

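The hedgehog pathway genes described here are the 3 ligand genes Shh, Ihh and Dhh, the receptor genes Ptch1 and Smo, the ligand trap gene Hhip, and the effector genes Gli1, Gli2 and Gli3. These 9 genes were taken by name from 21887 protein-coding genes, and each was given the peaks that overlapped its annotated span plus 10 kb on each side. The mark is H3K27me3 (histone H3 trimethylated at lysine 27). It was profiled by ChIP-seq, which sequences the DNA recovered with an antibody to the mark, in freshly dissected sciatic nerve. The mice were C57/BL6 males, 8 weeks old. The labels name no injury, genotype, treatment or cell sorting, and the number of animals behind each library is not stated in them. There was 1 ChIP library and 1 input library (chromatin kept aside before immunoprecipitation, without antibody), so no p-values were computed. Intervals on reads and their ratios cover counting error only. Intervals on shares of genes treat listed genes as independent draws, although the genes were picked by name and some share peaks. They therefore serve only as a rough guide to the size of a list. Since the nerve is a mixture of cells, a mark in more cells and a denser mark in fewer cells cannot be told apart.

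Hedgehog ligands are secreted proteins that bind Ptch1 and thereby release Smo, a membrane protein that Ptch1 otherwise holds inactive. Active Smo turns Gli transcription factors, foremost Gli2 and Gli3, from repressors to activators. Gli1, Ptch1 and Hhip are themselves common targets of the pathway, and Hhip binds ligand and keeps it from its receptor. In intact nerve Dhh is made by Schwann cells, the myelinating glia, and acts on the mesenchyme that forms the perineurial sheath, while Shh appears in Schwann cells after injury. H3K27me3 is laid down by Polycomb repressive complex 2 and is found mostly at genes with little transcription. The question here is how the mark differs between injury-induced Shh and Dhh, which is active in this tissue.

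Promoter sequence is shown for 4 members that lie at opposite extremes of the peak map: Ihh, whose promoter lay entirely inside a peak, Dhh, whose start site was covered by a small peak, and Ptch1 and Gli3, which had no peak nearby. Each line gives the 250 bases before the RefSeq start site (GRCm38.p6, the assembly of mm10), 5′ to 3′ on the gene's strand, with every CpG dinucleotide in capitals. The stretches are chr1:74951673-74951922, minus strand, for Ihh, chr15:98898541-98898790, minus strand, for Dhh, chr13:63565736-63565985, minus strand, for Ptch1, and chr13:15463473-15463722, plus strand, for Gli3. The annotated span of Ptch1 runs on to position 63573460. Its stretch therefore lies inside the gene, and the outermost 5′ end is not shown.
Ihh: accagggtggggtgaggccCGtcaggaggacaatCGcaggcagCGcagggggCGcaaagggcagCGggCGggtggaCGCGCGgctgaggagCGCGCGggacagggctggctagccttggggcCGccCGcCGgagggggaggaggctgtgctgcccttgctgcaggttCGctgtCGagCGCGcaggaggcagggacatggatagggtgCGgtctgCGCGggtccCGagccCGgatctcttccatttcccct
Dhh: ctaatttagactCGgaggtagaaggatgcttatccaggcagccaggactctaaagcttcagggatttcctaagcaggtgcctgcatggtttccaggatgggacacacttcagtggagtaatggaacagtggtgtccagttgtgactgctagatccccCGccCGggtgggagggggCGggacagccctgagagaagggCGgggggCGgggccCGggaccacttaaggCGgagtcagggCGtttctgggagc
Ptch1: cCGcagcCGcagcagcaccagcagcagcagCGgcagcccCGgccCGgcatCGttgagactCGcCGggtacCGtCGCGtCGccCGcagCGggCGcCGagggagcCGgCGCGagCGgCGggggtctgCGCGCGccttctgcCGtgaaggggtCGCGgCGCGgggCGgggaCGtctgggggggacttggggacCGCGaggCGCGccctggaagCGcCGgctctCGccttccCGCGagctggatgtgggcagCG
Gli3: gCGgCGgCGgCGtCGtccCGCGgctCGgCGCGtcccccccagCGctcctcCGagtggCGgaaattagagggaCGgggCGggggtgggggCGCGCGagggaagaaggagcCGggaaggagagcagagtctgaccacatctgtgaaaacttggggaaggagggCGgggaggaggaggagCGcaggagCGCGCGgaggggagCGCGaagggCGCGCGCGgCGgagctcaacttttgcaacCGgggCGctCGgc
These 4 promoters were picked by their place on the peak map, so their CpG counts are a description and test no link with the mark. The Ihh stretch held 24 CpG and lay inside a peak over all 250 bases. Ptch1 held 41 and Gli3 held 34, more than Ihh, and neither had a peak. Gli2 (22) and Smo (15), not shown, held fewer than Ihh, and their promoters had no peak either. The Dhh stretch held 9 CpG, 8 of them in the 100 bases next to the start site, and 16 of its bases lay inside a peak.

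All 3 ligand genes carried the mark, and Shh carried the most of any member. Values are given as reads, obtained by dividing the authors' score of each peak by the step of 2.5735 between neighbouring scores. Summed over whole peaks, Shh had 216 reads (exact 95% Poisson interval 188 to 247) in 3 peaks, Ihh had 100 (81.4 to 122) in 2 and Dhh had 38 (26.9 to 52.2) in 2. The remaining members ranged from 0 to 53 reads, with a median of 5.5. Together the 9 genes had 430 reads in 11 peaks, and 82.3% of those reads lay at the ligands.

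**Figure D1:**
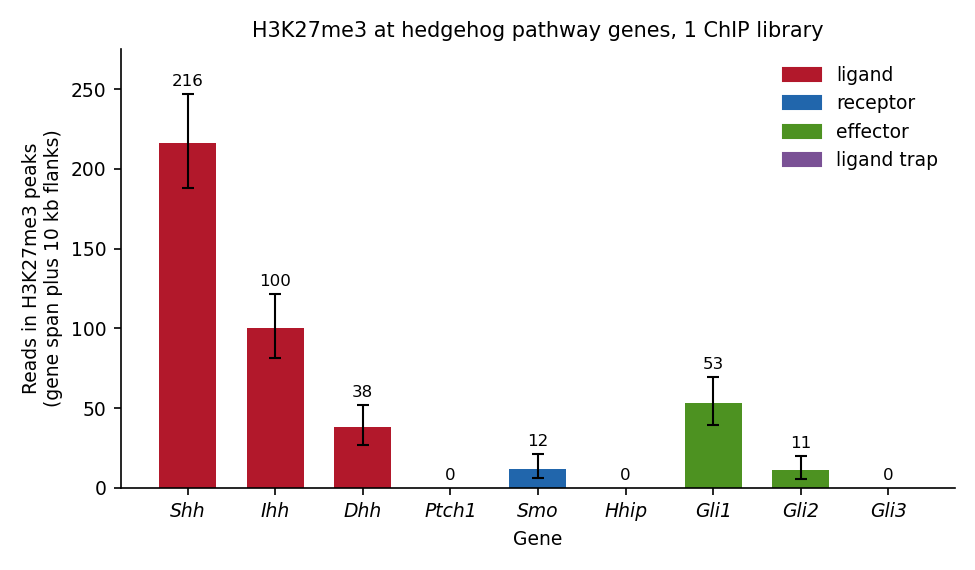
Reads in H3K27me3 peaks (vertical axis) for each hedgehog pathway gene (horizontal axis), counted over the gene span plus 10 kb flanks in 1 ChIP library. Bars are sums over whole peaks, coloured by role, and error bars are exact 95% Poisson intervals, drawn only where there is a peak. Shh (216) and Ihh (100) stand above all other members, and Ptch1, Hhip and Gli3 have no called peak.

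A peak was found at 6 of the 9 members (66.7%), against 13.7% of all protein-coding genes in the same kind of window. Long genes have larger windows, so all genes were also put into 10 equal classes by length. The 3 ligand genes are short, between 6.36 and 16.9 kb, and among genes of like length 15.1% (the class of Shh), 14.1% (Ihh) and 11.8% (Dhh and Gli1) had a peak. The share was 11.8% in the class of Smo, 15.7% in that of Ptch1 and Hhip, and 24.9% in that of Gli2 and Gli3. The longest members did not carry the most marks: Gli3, at 266 kb, had none, and Gli2, at 220 kb, had 1 peak of 11 reads.

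Shh encodes Sonic hedgehog, the ligand that patterns limb and neural tube. Its largest peak was 4714 bp wide with 127 reads (chr5:28457700-28462413), more than all but 3.51% of the 6018 peaks in the list. Another peak of 2273 bp held 79 reads (chr5:28463194-28465466), and both lay inside the gene. The last, of 500 bp and 10 reads (chr5:28468061-28468560), lay 0.96 kb beyond the higher-coordinate end, over the long non-coding RNA gene 9530036O11Rik. The mark therefore lay over most of the gene: peaks covered 68.1% of the annotated Shh span, chr5:28456840-28467101. Among the 2988 protein-coding genes with a peak, 92.1% had fewer reads than Shh.

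Ihh encodes Indian hedgehog, best known from cartilage growth plates. A peak of 3127 bp with 86 reads (chr1:74949205-74952331) covered its start site and 5′ part, and with it 38.8% of the gene. The other peak in its window, of 14 reads (chr1:74937120-74937750), lay 7.57 kb beyond the 3′ end and only 1.49 kb from the neighbouring gene Cfap65, in whose window it also falls. The start-site peak alone accounts for 86 of the 100 reads.

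Dhh encodes Desert hedgehog, the ligand that Schwann cells of intact nerve make, and it was not free of the mark. A peak of 500 bp with 10 reads (chr15:98898057-98898556; interval 4.80 to 18.4) covered its start site. That is the lowest read number in the whole list, shared by 24.8% of all peaks. A larger peak of 1592 bp with 28 reads (chr15:98894869-98896460; 18.6 to 40.5) lay 2.08 kb downstream of the start, inside the annotated gene. Only 25.4% of all peaks held 28 reads or more, so the Dhh signal rested mainly on this peak in the gene body. Both peaks also fall in the 10 kb flank of Lmbr1l, whose nearer end is 5.36 kb from the start-site peak, and neither overlaps that gene.

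Set side by side, Shh had 5.68 times the reads of Dhh (exact 95% interval for counting error 4.01 to 8.25), and its largest peak had 4.54 times the reads of the largest Dhh peak (2.99 to 7.10). Ihh had 2.63 times the reads of Dhh (1.80 to 3.93). The genes differed in extent too, since 68.1% of Shh was covered against 12.3% of Dhh. They also differed in density: the peaks of Shh held 28.9 reads per kb of peak and those of Ihh 26.6. Those of Dhh held 18.2, against a median of 21.0 over all peaks. That median is partly set by the peak list itself: 41.6% of peaks had the shortest width, 500 bp, and none held fewer than 10 reads. Lying below the median therefore does not show that the mark was sparse at Dhh. A narrower setting counted only peaks touching the 2 kb around either annotated gene end. Dhh then fell to 10 reads and Shh stayed at 216, a ratio of 21.6. The larger Dhh peak lies just outside that window, 2.10 kb from the gene end. Both larger Shh peaks touch the window, lying 0.86 and 1.635 kb from a gene end. They reach beyond it but were counted whole, which also adds to this ratio. With 1 library, these ratios could not be set against variation between animals.

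**Figure D2:**
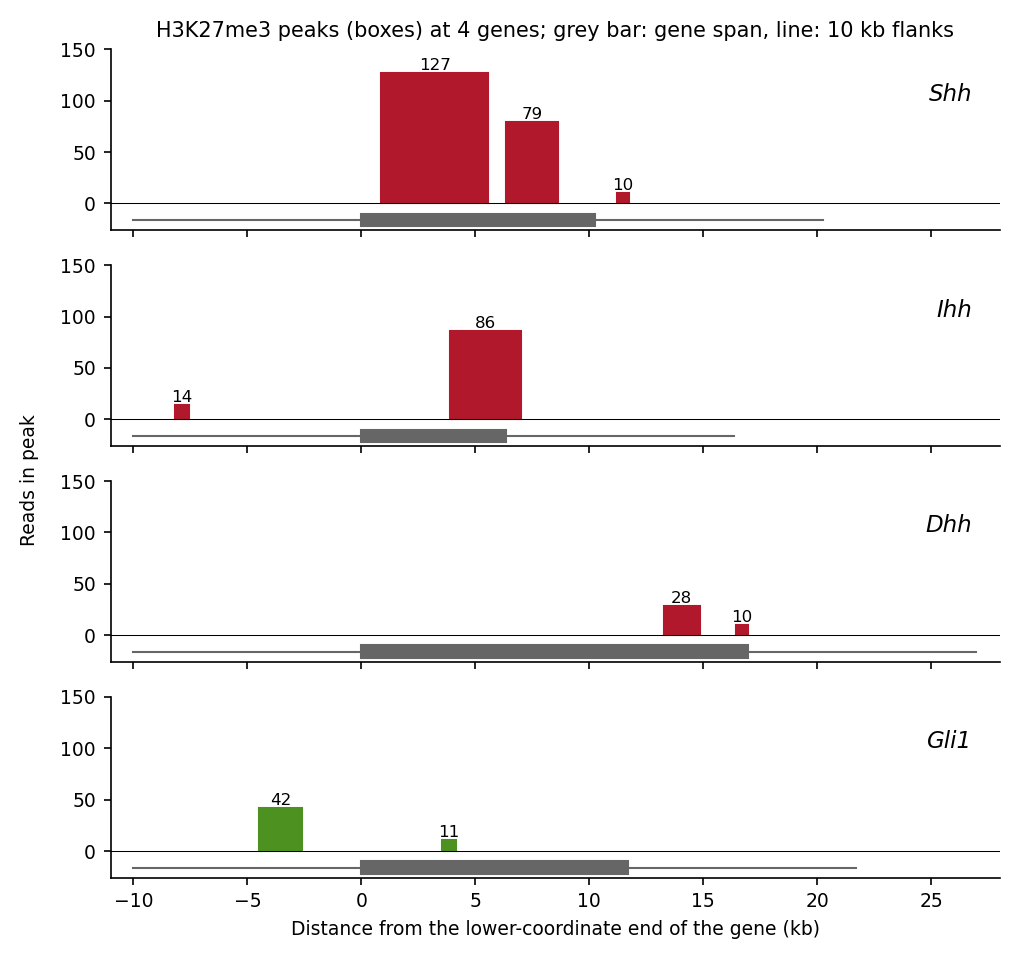
H3K27me3 peaks at Shh, Ihh, Dhh and Gli1 on a common scale, with distance from the lower-coordinate end of each gene in kb (horizontal) and reads per peak (vertical). Boxes are peaks drawn to their width, grey bars are gene spans and thin lines the 10 kb flanks. Peaks of 127 and 79 reads lie over Shh and 86 over Ihh, while the Dhh peaks hold 28 and 10 and the larger Gli1 peak (42) lies outside the gene.

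The receptor genes carried little or nothing. Ptch1, which binds the ligands, had no peak in its window; as the smallest peak in the list holds 10 reads, fewer reads than that would not appear. Its nearest peak lay 701 kb away. Smo, which passes the signal on, had 1 peak of 500 bp with 12 reads (chr6:29747979-29748478; interval 6.20 to 21.0), 12.5 kb downstream of the start and inside the gene. Hhip, the ligand trap, had no peak, and its nearest one lay 553 kb away.

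Of the effectors, Gli1 had the most reads, but most of them lay over a neighbour. Its window held 53 reads (39.7 to 69.3) in 2 peaks. The larger, of 1889 bp and 42 reads (chr10:127325386-127327274), lay 2.61 kb beyond the gene and overlapped the neighbouring gene Arhgap9. Inside Gli1 itself there was 1 peak of 634 bp with 11 reads (chr10:127333404-127334037), and with flanks of 2 kb or none Gli1 fell to those 11 reads. Gli2 had a single peak of 500 bp with 11 reads (chr1:119052039-119052538), 1.08 kb downstream of its start, and Gli3 had none, with the nearest 941 kb away. A long distance to a peak was common: the median protein-coding gene lay 205 kb from its nearest peak, and 18.7% of genes lay farther than Gli3, 24.0% farther than Ptch1 and 28.5% farther than Hhip.

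Ordered by reads, the members ran Shh, Ihh, Gli1, Dhh, Smo and Gli2, followed by Ptch1, Gli3 and Hhip at 0. The counting intervals of Gli1 and Dhh overlapped, as did those of Smo and Gli2, so the order within these pairs was not resolved at this depth. The intervals of Shh, Ihh and Gli1 did not overlap one another. When only peaks of at least 20 reads were counted, Smo and Gli2 dropped out and 4 members kept a peak, against 6.77% of all protein-coding genes: Shh (206 reads), Ihh (86), Gli1 (42, over Arhgap9) and Dhh (28).

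The CpG content of the promoters was compared for the 7 members with a RefSeq promoter entry, and there was none for Shh and Gli1. The entries for Ptch1 and Gli2 lie inside the annotated gene spans. Over 17492 protein-coding promoters the median was 10 CpG in 250 bases (quartiles 3 and 19), and 92.7% held at least 1. Ptch1 (41), Gli3 (34) and Hhip (28) had more CpG than 98.7%, 95.9% and 90.9% of promoters, and none of them had a peak. Ihh (24), Gli2 (22) and Smo (15) were also above the median, and Dhh (9) lay just below it. Of these, Ihh and Dhh had a peak over the promoter, and Gli2 and Smo did not. In the list as a whole, a peak overlapped the promoter of 1.22% of genes with 0 to 4 CpG and of 5.49% to 6.54% of genes in each class with more.

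**Figure D3:**
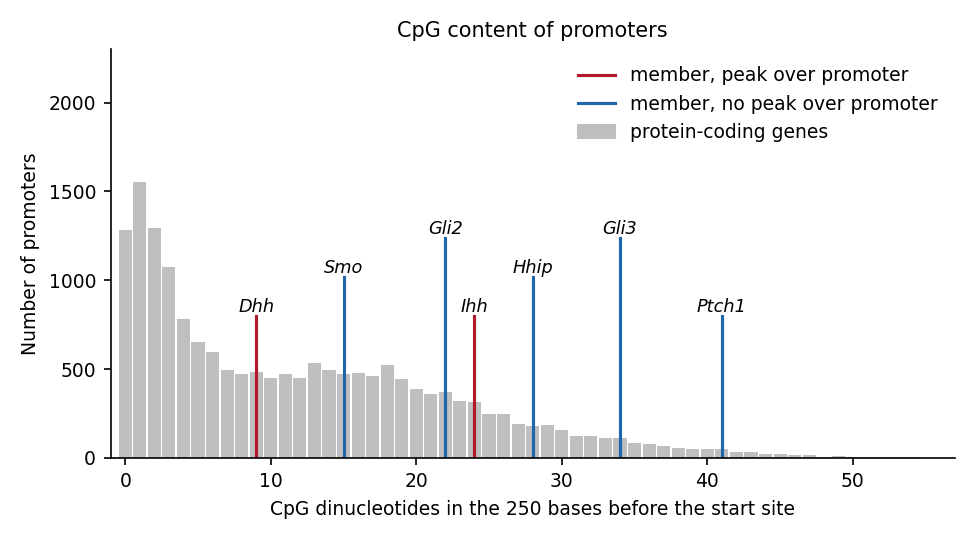
Number of protein-coding promoters (vertical) by CpG dinucleotides in the 250 bases before the start site (horizontal, grey bars), with vertical lines at the values of the 7 hedgehog members that have a promoter entry. The height of the lines carries no value. Red lines mark members with a peak over the promoter (Dhh at 9, Ihh at 24). Blue lines mark members without one: Smo (15) and Gli2 (22) lie between the red lines, and Hhip, Gli3 and Ptch1 lie to the right of both, at 28 to 41.

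The genes around Shh and Dhh place these peaks in their surroundings. Shh stood alone: outside its window the next peak lay 245 kb away, with 104 reads (chr5:28206929-28211752), inside Cnpy1, and 4 peaks in all lay within 250 kb of the gene. Rbm33, which lies between Shh and Cnpy1, had no peak, nor did Lmbr1, on the other side of Shh and known to hold its distant limb enhancer in an intron. Cnpy1 had 124 reads, and the homeobox genes En2, beside Cnpy1, and Mnx1, beyond Lmbr1, had 458 and 386 reads, while Rnf32, Nom1 and Insig1 had none. Dhh and Ihh lay in richer surroundings, each with 16 peaks within 250 kb. Near Dhh these included peaks at the Wnt ligand genes Wnt1 (182 reads) and Wnt10b (59 reads), at Ddn (157 reads) and at Prkag1 (33 reads), whereas Kmt2d, Rhebl1, Tuba1a and Tuba1b had none. Windows of neighbouring genes overlap here, so a peak can count for more than 1 of them. With flanks of 2 kb, Ddn fell to 33 reads and Prkag1 had no peak, while Wnt1 kept 159 reads and Wnt10b 59.

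The wider pathway was divided by role. Of 12 genes for ligand release and co-receptors, 4 had a peak (33.3%, exact 95% interval 9.93 to 65.1), and all were weak: the endocytic receptor gene Lrp2 had 27 reads, the glypican gene Gpc5 26, and Scube1 and Scube3, which encode secreted proteins of a family that helps ligand release, 10 each. No peak in this list reached 20 reads, and 6.77% of all protein-coding genes had such a peak. Hhat, which encodes the ligand acyltransferase, Disp1, needed for ligand release, and the co-receptor genes Cdon, Boc and Gas1 had none. Of 20 genes for intracellular transducers and the primary cilium, the organelle through which the signal runs, 0 had a peak. That allows a share of up to 15% (3 counts of 20, exact 95% upper limit 16.8%). The intervals of both lists include the 13.7% of all protein-coding genes, so neither share was resolved from it. The 20 genes included Sufu, the Gli inhibitor, Kif7, a ciliary kinesin, and Gpr161, a ciliary receptor.

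Genes reported to respond to hedgehog signals in some tissue had a larger share. Of 18, 13 had a peak (72.2%, 46.5 to 90.3), against 13.7% of all protein-coding genes. A peak of at least 20 reads was found at 12, against 6.77% of all protein-coding genes. The highest were the transcription factor genes Foxf1 (493 reads), Foxa2 (446 reads), Olig2 (403 reads), Nkx6-1 (372 reads), Foxf2 (278 reads) and Osr2 (277 reads). With flanks of 2 kb, Foxf1 fell to 212 reads, Foxf2 to 116 and Foxa2 to 272, while Olig2 (381), Nkx6-1 (302) and Osr2 (262) changed less. Foxa2, Olig2, Nkx6-1 and Osr2 stayed above Shh at 216, and Foxf1 and Foxf2 did not. Foxc2 (261 reads) and Foxl1 (226 reads) lie side by side near Foxf1 on chromosome 8, and their windows overlap; with flanks of 2 kb they had 126 and 112 reads. Mycn, Ccnd1, Bcl2, Snai1 and Sfrp1, also in this list, had no peak. Many of these genes are developmental regulators that answer to several signals, so the list is not specific to the pathway.

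Ligands and receptors of 2 other pathways were counted the same way. Of 19 Wnt ligand genes 17 had a peak (89.5%, 66.9 to 98.7), with a median of 51 reads over the list, against 1 of 12 Wnt receptor genes (8.33%, 0.211 to 38.5), which was Fzd10 with 78 reads. Of 5 Notch ligand genes 4 had a peak, with Dll3 highest at 101 reads (44 with flanks of 2 kb), against 0 of 4 Notch receptor genes (exact 95% upper limit 60.2%). The hedgehog ligands (3 of 3, interval 29.2% to 100%, median 100 reads) also had a larger share than the other 6 members (3 of 6, median 5.5 reads). Those 6 are not a receptor list: they mix 2 receptor genes (1 with a peak), 3 effector genes and the ligand trap gene. Their share of 50% (11.8 to 88.2) lay above the 13.7% of all protein-coding genes, whereas those of the Wnt and Notch receptors lay below it. Each of these intervals includes 13.7%, so none of these shares was resolved from it. The intervals of the hedgehog ligands and of the other 6 members overlap as well. Whether the difference between ligands and other genes is larger in one pathway than in another was not tested.

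**Figure D4:**
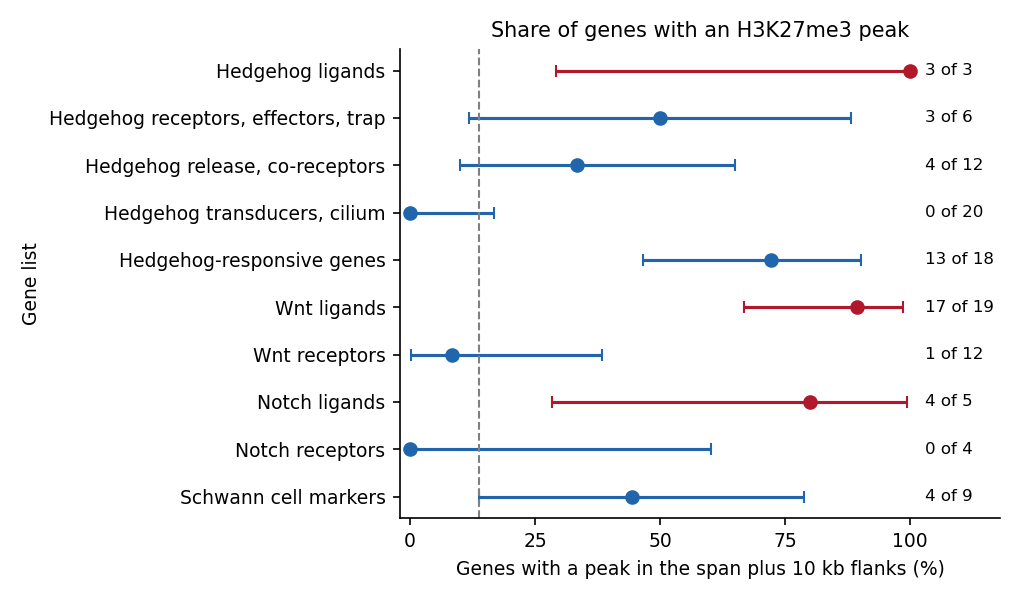
Share of genes with an H3K27me3 peak in the span plus 10 kb flanks (horizontal, percent) for each gene list (vertical), with the counts at the right. Points are shares, bars are exact 95% Clopper-Pearson intervals, and the dashed line is the 13.7% of all protein-coding genes. Ligand lists (red) lie at 80% to 100%, and hedgehog transducers, Wnt receptors and Notch receptors at 0% to 8.33%. The remaining lists, among them the hedgehog receptors, effectors and trap at 50%, lie at 33.3% to 72.2%.

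Peaks were also counted at marker genes of cell types. The peak list holds no RNA, and these counts cannot check the labelled tissue. Of 9 Schwann cell markers, 4 had a peak (44.4%, 13.7 to 78.8), against 13.7% of all protein-coding genes. Each of the 4 held 10 to 18 reads, among them Egr2 with 18, Mbp with 11 and Sox10 with 11. Pmp22, Mag, Prx and S100b were among those without one. None of the 9 had a peak of at least 20 reads, against 6.77% of all protein-coding genes. With 9 genes, a count of 0 cannot be told apart from that share. Dhh had a peak of 28 reads. Perineurial, endothelial and macrophage markers had none (0 of 3 each, exact 95% upper limit 70.8%), and 1 of 4 fibroblast markers (Pdgfra, 85 reads) and 1 of 4 muscle and fat markers (Acta1, 79 reads) had peaks. The part that the cell mixture has in the Dhh peaks was not tested.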

How the data were processed

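Sciatic nerve chromatin was immunoprecipitated with an antibody to H3K27me3. Per the submitters' processing notes, Bowtie and the build mm10 were used. The peak caller, its settings and the role of the input remain not given in the sources used here. Per peak, the authors deposited a position and a score whose meaning is not stated, for 6018 peaks. Nearly all scores (99.8%), among them those of all 11 peaks at the members, were no more than 0.05 from a whole multiple of 2.5735, so scores were divided by this step and read as numbers of reads. The lowest score, 25.7, gives 10 reads, and the peaks held 185225 reads in all. Library depth is unknown, and input values were not analysed here.

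Gene spans came from RefSeq (GRCm38.p6), without exons, and start sites and promoters from RefSeq promoter entries. A peak counted when it overlapped the span plus 10 kb by at least 1 bp, and all its reads were counted. Intervals are exact (Poisson, Clopper-Pearson, or conditional binomial for ratios, at 95%), and a share of 0 allows 3 counts of the total. A gene without a called peak is listed at 0 reads, with no limit given. PCR duplicates were not assessed, so intervals on reads cover counting error only. Python 3.11.15 with scipy 1.17.1 was used, and counting was tested on simulated peaks. Named genes are the members, genes sharing their peaks, marked genes of each list up to 6 by reads, up to 6 unmarked ones, the listed neighbours of Shh and Dhh, and the 3 genes most like Shh. A few listed genes are left unnamed here. Members and lists were chosen with earlier results of these data known. Alternatives varied the window, the peak threshold, the overlap and the background genes.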

Additional observations from a re-analysis of the deposited data

How the results depend on the processing

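A peak remained at 6 of the 9 members with flanks of 0, 2, 5, 20 or 50 kb and with at least 50% of the peak inside the window. The count was 4 with peaks scoring 36.0 (the median) or more, with peaks of at least 20 reads and within 2 kb of either gene end, and 3 of the 7 members with a known start within 2 kb of it. Shh kept 206 to 216 reads in every setting that gave it a value, and no value was had around the start site, where it has no entry. Dhh kept 28 to 38 reads except within 2 kb of either gene end or of the start site, where it had 10 reads in each case. With flanks of 50 kb, Ihh rose to 182 reads, Smo to 22 and Gli2 to 23. Within 2 kb of either gene end, Gli1 and Smo had no peak, and Gli1 had 11 reads with flanks of 0 or 2 kb. The share of protein-coding genes with a peak was 9.77%, 10.5%, 11.8%, 17.0% and 25.5% with flanks of 0, 2, 5, 20 and 50 kb, 8.59% near either end, 7.31% near the start site, 8.92% with scores from the median up, 6.77% with at least 20 reads and 14.4% on autosomes. Of the 50 other hedgehog pathway genes, 17 had a peak with flanks of 10 or 2 kb and 12 with peaks of at least 20 reads. Of these, 13 and 12 were among the 18 genes reported as hedgehog-responsive, a list not specific to the pathway. The genes for release and co-receptors gave 4 and 0, and the transducers 0 and 0. No paired analysis was possible because each group has 1 sample. Peaks of 10 to 14 reads, 6 of the 11 at the members, carry wide counting intervals, and a member without a peak may still hold the mark below the calling threshold.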

Other observations

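The genes whose peaks lie most like those of Shh were sought among 2410 protein-coding genes with a covered base within 10 kb of a start site, or of either end where no start site is known. The likeness is the Jaccard index, the bases covered at both genes divided by the bases covered at either. Genes with a known start site were oriented by strand. Shh has no strand entry, so it was oriented inward from each end in turn, and only 1 of these readings can run from its start. Other genes without a start site were also tried from both ends, and the best match per gene was kept. Measured from the higher-coordinate end of Shh, the closest were Lhx3, a pituitary and motor neuron homeobox gene (0.763, 281 reads), Igf2, an imprinted growth factor gene (0.711, 220 reads), and Tbx1, a T-box gene of pharyngeal development (0.672, 231 reads). Measured from the lower-coordinate end, they were Igf2 (0.729), Lhx3 (0.711) and Casz1 (0.706, 295 reads). The index rests on 1 library and on where peaks were called, and it describes position only.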
